A study of Mus musculus with 4 samples.

Results

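The set consisted of Perp and 9 genes of the desmosome (Dsp, Jup, Pkp1, Pkp2, Pkp3, Dsg2, Dsg3, Dsc2 and Dsc3), together with the open chromatin around them. Its members were chosen by position: a control peak or an AP-2-dependent region belonged to a gene when its centre lay within 100 kb of the start site of that gene's principal transcript. By this rule 100 of the 65467 control peaks and 3 of the 3103 AP-2-dependent regions were members. Because 9 of the peaks lay within 100 kb of more than 1 member gene, there were 109 pairs of a peak and a gene.

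ATAC-seq, which marks nucleosome-free DNA by transposase insertion, was carried out on the facial surface ectoderm of E11.5 mouse embryos in 4 libraries, 2 from control and 2 from EDKO embryos. EDKO embryos carried the ectoderm-specific Cre transgene Crect with Tfap2a flox/flox and Tfap2b flox/flox, so that AP-2α and AP-2β were deleted in the surface ectoderm. Control littermates had no Crect and were Tfap2a flox/+ and Tfap2b flox/+, so that floxed alleles were shared by both groups while their number was not. The ectoderm of each sample came from pooled facial prominences, was freed from the mesenchyme with dispase, and was dissociated to single cells before transposition. Control peaks were called from both control libraries together. AP-2-dependent regions were called where both control libraries together had more signal than both EDKO libraries together, so a region marks accessibility that was lower in EDKO. Each of the regions was contained in a peak of the control list. Each peak carries 1 value for its combined libraries, its summit −log10 p against the background of that call, and there is no value per library, no read count and no replicate error. Values of the 2 lists were therefore not set against each other, and no test was made.

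Desmosomes are the junctions by which epithelial cells hold together under mechanical load. Their cadherins, the desmogleins (Dsg) and desmocollins (Dsc), bind across the gap between neighboring cells, and inside the cell the armadillo proteins plakoglobin (Jup) and the plakophilins (Pkp) join the cadherin tails to desmoplakin (Dsp), which anchors the keratin filaments. Perp is a tetraspan membrane protein of the desmosome that is needed for its assembly in stratified epithelia and is a known target of p63 and p53. AP-2 proteins bind GC-rich palindromes and are regulators of surface ectoderm and epidermis.

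Of the 10 genes, 3 had an AP-2-dependent region within 100 kb, namely Perp, Pkp1 and Pkp3. Over all 21829 protein-coding genes the share was 20.2%. The sequences of the Perp and Pkp3 regions are printed because they are DNA of the set whose accessibility was called lower in EDKO. They are read from GRCm38, the assembly of the peak lists, on the plus strand. The Perp sequence is the 300 bases of its region that end at its last base, and the Pkp3 sequence is the stretch of 185 bases of its region that lies clear of untranslated exons. Capitals mark matches on either strand to a consensus string: in Perp, a p53 family string, and in Pkp3, a degenerate AP-2 string (C or G, then CC, C or T, any base, A or G, GG, and C or G).
Perp region, chr10:18846543-18846842, plus strand: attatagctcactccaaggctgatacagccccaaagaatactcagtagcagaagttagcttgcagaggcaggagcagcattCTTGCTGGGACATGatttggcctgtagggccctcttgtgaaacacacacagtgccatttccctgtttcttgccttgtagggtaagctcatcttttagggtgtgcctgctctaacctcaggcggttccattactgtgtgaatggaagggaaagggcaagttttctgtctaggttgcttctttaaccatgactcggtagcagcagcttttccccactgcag
Pkp3 region, chr7:141078962-141079146, plus strand: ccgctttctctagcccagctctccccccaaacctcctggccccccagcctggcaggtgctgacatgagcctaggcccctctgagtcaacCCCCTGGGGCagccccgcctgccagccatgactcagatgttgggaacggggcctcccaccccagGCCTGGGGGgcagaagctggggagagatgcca

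Promoter sequence was available for 2 of the 10 members, Dsp and Jup, in the RefSeq table of GRCm38.p6. Both are shown, on the gene strand and up to the base before the RefSeq start site, because wide control peaks without an AP-2-dependent region covered both of them. Capitals mark the degenerate AP-2 string, which in Dsp is also a match to the strict AP-2 string GCCNNNGGC.
Dsp promoter, chr13:38151044-38151293, plus strand: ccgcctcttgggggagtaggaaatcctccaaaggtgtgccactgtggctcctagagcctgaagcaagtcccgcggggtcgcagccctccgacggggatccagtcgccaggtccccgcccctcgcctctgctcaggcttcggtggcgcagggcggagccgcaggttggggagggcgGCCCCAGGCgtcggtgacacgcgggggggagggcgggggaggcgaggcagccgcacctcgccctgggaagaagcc
Jup promoter, chr11:100397791-100398040, minus strand: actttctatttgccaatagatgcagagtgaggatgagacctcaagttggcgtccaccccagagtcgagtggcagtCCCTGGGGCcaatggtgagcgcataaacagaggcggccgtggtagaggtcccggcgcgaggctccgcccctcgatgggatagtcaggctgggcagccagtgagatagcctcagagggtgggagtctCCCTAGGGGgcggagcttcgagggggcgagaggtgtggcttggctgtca
Of the 32851 upstream windows of this length in the RefSeq table, 13.7% held GCCNNNGGC and 14.8% held the degenerate string, with both strands searched. The Dsp window had a GC content of 72.4% and 22 CpG dinucleotides, and the Jup window a GC content of 62% and 13 CpG dinucleotides. A match is a description of the letters and not of binding.

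**Figure D1:**
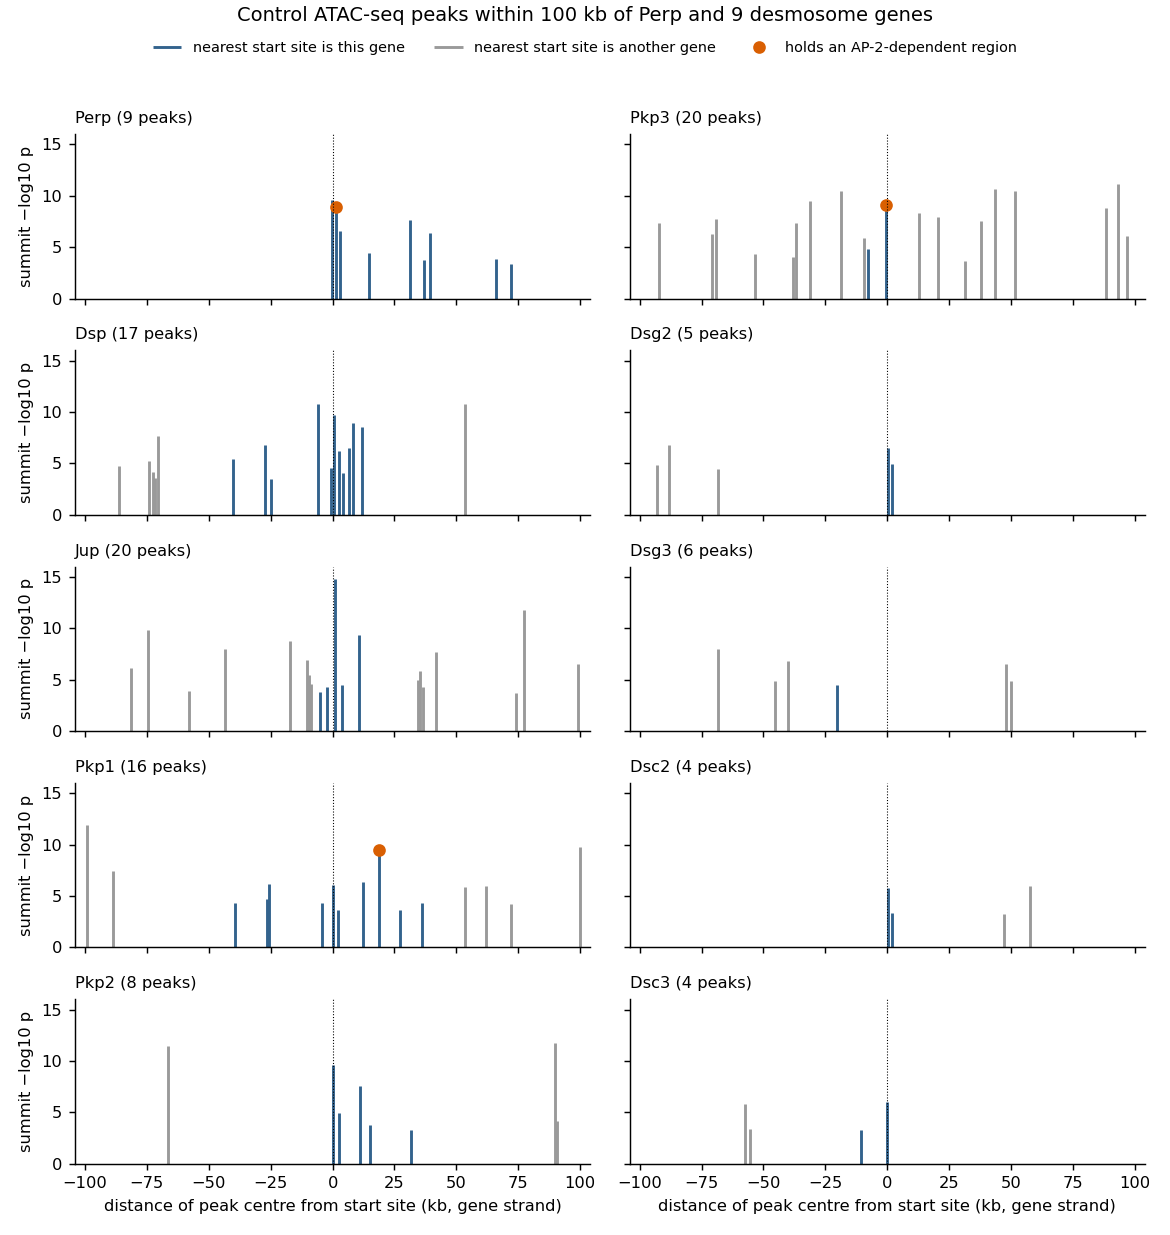
Summit −log10 p (vertical axis) of each control peak within 100 kb of the 10 genes, against the distance of its centre from the start site in kb on the gene strand. Blue lines are peaks whose nearest start site is that of the gene, gray lines those nearer to another gene, and orange circles the 3 peaks that hold an AP-2-dependent region, at Perp, Pkp1 and Pkp3. Jup and Pkp3 had 20 peaks each, and Dsc2 and Dsc3 shared the same 4.

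Perp, on chromosome 10 (18845020 to 18857073, plus strand), had 9 control peaks, all of them nearest to its own start site and none further upstream than the promoter. The peak at the start site was 1577 bp wide with a summit −log10 p of 9.54, above 87.2% of all control peaks. It held GCCNNNGGC as gcccggggc, 13 bp from its summit, but no AP-2-dependent region. The next peak, 1.55 kb downstream in intron 1, was 1724 bp wide with a summit −log10 p of 8.86. Inside it lay the Perp region, chr10:18846509-18846842, also in intron 1, with its centre 1.66 kb from the start site. The region filled 19.4% of the width of this control peak, and the summits of the region and the peak were 13 bp apart. Its own summit −log10 p of 5.17 stood above 71.8% of all AP-2-dependent regions, and its area under the curve of 428 above 56% of them. The whole 334 bp region held no match to GCCNNNGGC or to the degenerate AP-2 string. It did hold a p53 family string, cttgctgggacatg, 86 bp from its summit, as did the peak 2.97 kb from the start site (caagctctggcatg, 14 bp from the summit). The other 6 peaks of Perp, from 14.8 to 72.2 kb downstream, had summit −log10 p values from 3.34 to 7.63.

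Desmoplakin, the plaque protein that ties desmosomes to keratin, had 17 control peaks and no AP-2-dependent region within 100 kb. Dsp lies on chromosome 13 (38151294 to 38198577, plus strand), and 2 peaks had their centres within 1 kb of its start site. The nearer one, at −629 bp, was narrow at 271 bp, with a summit −log10 p of 4.51. The other spanned the start site, was 2177 bp wide with a summit −log10 p of 9.68 in intron 1, and covered the promoter printed above from end to end. A chain of 5 further peaks followed in intron 1 between 2.7 and 11.8 kb, with values from 4.12 to 8.96, of which the last 2 held a p53 family string (cttgtttaaacaag at 8.08 kb and ctagtgctggcttg at 11.8 kb). Upstream, a peak at −5.83 kb reached 10.7, above 92% of control peaks. The highest value within 100 kb, 10.8 at 53.6 kb, belonged to the start site of the neighboring gene Snrnp48.

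Plakoglobin, encoded by Jup on chromosome 11 (100368958 to 100397763, minus strand), had the strongest peak of the set. The peak over its start site was 3503 bp wide, with a summit −log10 p of 14.8 that exceeded 99.6% of all control peaks and an area under the curve of 13245. Its summit lay 8 bp from a match to the degenerate AP-2 string (gccccaggg), the first of the 2 matches printed in capitals in the Jup promoter. No AP-2-dependent region overlapped this peak or any other of the 20 control peaks within 100 kb of Jup. A peak at 10.5 kb in intron 1 had a value of 9.38 and held GCCNNNGGC (gcccagggc, 89 bp from the summit). Only 5 of the 20 peaks were nearest to Jup itself, since the start sites of Klhl10, Klhl11, Nt5c3b, P3h4, Hap1 and Eif1 lie within the same window.

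Plakophilin 1, a plaque protein of stratified epithelia, had 16 control peaks, 10 of them nearest to its own start site. Pkp1 lies on chromosome 1 (135871395 to 135919207, minus strand), and the peak over its start site was 1032 bp wide with a summit −log10 p of 6.05, above 63.7% of control peaks. A stronger peak lay 18.7 kb inside the gene, in intron 2, with a value of 9.51 and a width of 1270 bp. It contained the Pkp1 region, which had the highest values of the 3 regions: a summit −log10 p of 7.76, above 90.3% of all regions, and an area of 1055, above 88.1% of them. The region was 408 bp long and filled 32.1% of its control peak, and its summit was the same base as that of the peak. The only Pkp1 peak with GCCNNNGGC within 100 bp of its summit was the one 99.9 kb downstream, which lies at the start site of Lad1. Matches of the Pkp1 region to the degenerate AP-2 string are not reported here. The highest value around Pkp1, 11.9 at −99.3 kb, was at the start site of Tmem9.

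Plakophilin 2, which is prominent in simple epithelia and the heart, had 8 control peaks and no region, and the nearest AP-2-dependent region to Pkp2 was 1009 kb away. The gene is on chromosome 16 (16213318 to 16272712, plus strand). Its start site peak was 1456 bp wide with a value of 9.64, above 87.6% of control peaks, and held GCCNNNGGC 29 bp from the summit (gccccgggc). Within the gene, 4 peaks had values from 3.33 to 7.53. The strongest, 11.7 at 89.8 kb, was at the start site of Yars2.

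Plakophilin 3, a plaque protein found across simple and stratified epithelia, had 20 control peaks, of which 2 were nearest to its own start site. Pkp3 lies on chromosome 7 (141078218 to 141090510, plus strand) in a gene-dense interval, and the values around it had the highest median of the 10 genes, 7.62. The strongest of them, 11.2 at 93.1 kb, was at the start site of Rnh1. The peak over the Pkp3 start site was 2738 bp wide with a value of 9.07, above 85.1% of control peaks. It contained the Pkp3 region, chr7:141078962-141079231, centred 663 bp upstream of the principal start site and inside an intron of a Pkp3 transcript with its start at −1542 bp. Another annotated start, at −613 bp, falls within the region. The region covered 270 bp, or 9.86% of the peak, with its summit 612 bp from the summit of the peak, which lay 9 bp upstream of the principal start site. Its summit −log10 p of 6.37 was above 84.7% of all regions and its area of 674 above 76% of them. It held 3 matches to the degenerate AP-2 string, at 84, 83 and 20 bp from its summit, and no GCCNNNGGC, although the whole control peak held 2 copies of GCCNNNGGC outside the region. Over all AP-2-dependent regions, 4.07% were centred within 1 kb of a start site.

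**Figure D2:**
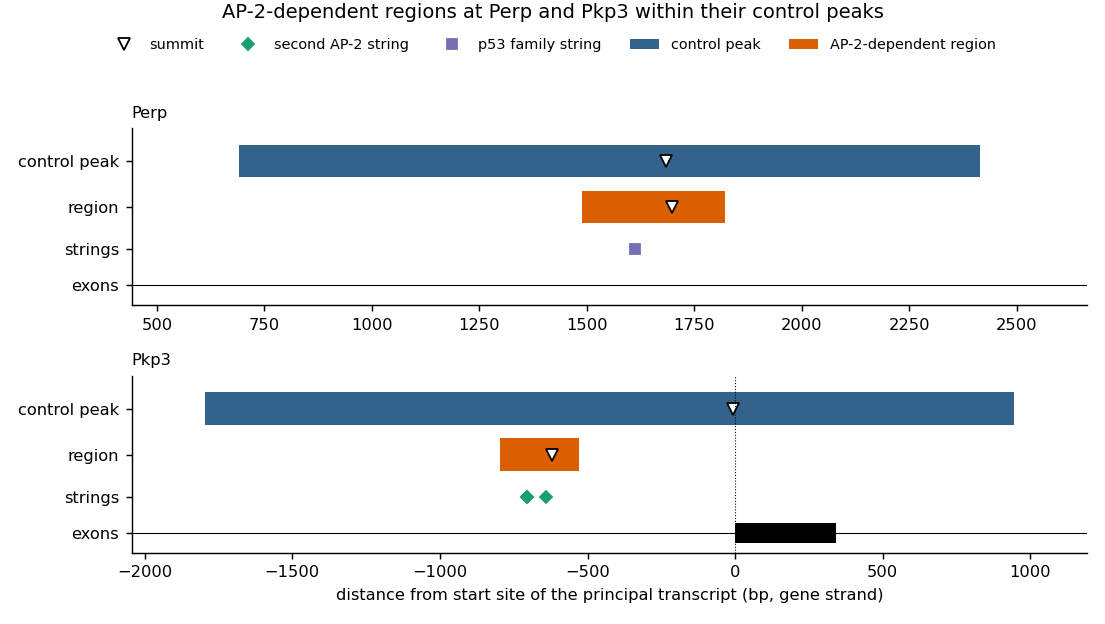
The AP-2-dependent regions at Perp and Pkp3 (orange) within their control peaks (blue), drawn to scale in bp from the start site of the principal transcript on the gene strand, with summits (white triangles), matches to the degenerate AP-2 string (green) and the p53 family string (purple), and exons of the principal transcript (black). The summit of the Perp region lay 13 bp from that of its peak, and the summit of the Pkp3 region 612 bp from that of its peak.

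The 3 regions differed in position, with the Pkp3 region upstream of the principal start site and the Perp and Pkp1 regions downstream of theirs. Over all regions, 29.7% held GCCNNNGGC and 58.7% held the degenerate string anywhere in the region, 17.9% held the p53 family string, and the typical region filled a median of 62.8% of its control peak. Each of the 3 filled less than that. Their widths of 334, 408 and 270 bp lay around the median of 359 bp of all regions. In none of the 3 did the 31-base words of the sequence occur a median of 2 or more times in the assembly. Among the 100 control peaks 3 did so, at −40.4 kb from Dsp (a median of 236 copies), 36.4 kb from Jup (2 copies) and 31.2 kb from Pkp3 (3 copies), and reads were allowed up to 10 positions in the alignment.

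The 4 cadherin members lie together on chromosome 18, where the desmocollins are on the minus strand and the desmogleins on the plus strand. Dsc3 (19960930 to 20002351) and Dsc2 (20030633 to 20059554) shared the same 4 control peaks. Dsg3 (20510274 to 20547459) and Dsg2 (20558074 to 20604521) had 6 and 5 peaks and shared 5. Dsc2, the most widely expressed desmocollin, had a start site peak of 941 bp with a value of 5.81, and Dsc3, a desmocollin of stratified epithelia, one of 694 bp with 5.99. Desmoglein 2, the most widely expressed desmoglein, had a start site peak of 1004 bp with a value of 6.54, which held GCCNNNGGC 64 bp from its summit. These 3 values stood above 60.9%, 63% and 68.7% of control peaks. Desmoglein 3, the adhesion protein of deep epidermal layers, was the only member without a peak at its start site, and its nearest peak was 20.5 kb upstream with a value of 4.51. The strongest peaks within 100 kb of the 2 desmogleins both lay in introns of Dsg4, with 8.01 at −68.5 kb from Dsg3 and 6.83 at −88.1 kb from Dsg2.

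None of the 4 cadherin members had an AP-2-dependent region within 100 kb. The whole cluster, which holds 9 desmocollin and desmoglein genes over 644 kb (19960930 to 20604521), had 16 control peaks, or 2.49 per 100 kb, beside 2.40 per 100 kb over the 21 chromosomes. The 2 strongest of these, with summit −log10 p values of 11.9 and 9.57, were also the 2 that held a region. Both lie between Dsc2 and Dsg3, upstream of Dsg1c, a desmoglein that was not a member, with region centres 59 and 18.7 kb from its start site and region values of 7.46 and 7.31, above 89.3% and 88.7% of all regions. They were 129 and 169 kb from Dsc2 and 186 and 227 kb from Dsc3, so they fell outside the limit of 100 kb. The first held GCCNNNGGC. No sequence of chromosome 18 is shown.

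Compared across the genes, the number of control peaks within 100 kb ran from 4 (Dsc2 and Dsc3), 5 (Dsg2) and 6 (Dsg3) through 8 (Pkp2) and 9 (Perp) to 16 (Pkp1), 17 (Dsp) and 20 (Jup and Pkp3), against a median of 8 with quartiles of 4 and 13 over all protein-coding genes. The plaque genes Jup, Pkp3, Dsp and Pkp1 stood at percentiles 91.4, 91.4, 86.1 and 83.8 of all genes, Perp and the plaque gene Pkp2 at 57.3 and 51.8, and the cadherins at percentiles from 27.8 to 40.4. Counted once, 49 of the 100 peaks had a member as their nearest start site and 25 had their summit inside a member gene. At their summits 47 peaks were intergenic, 37 intronic and 9 in 5′ untranslated exons. Distances from the nearest member were up to 1 kb for 10 peaks, 1 to 10 kb for 19, 10 to 50 kb for 39 and 50 to 100 kb for 32.

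A control peak within 1 kb of the start site was found at 9 of the 10 genes, beside 63.2% of all protein-coding genes. For each gene the peak with its centre nearest to the start site was taken. The summit −log10 p values were, from the lowest, 4.51 (Dsp), 5.81 (Dsc2), 5.99 (Dsc3), 6.05 (Pkp1), 6.54 (Dsg2), 9.07 (Pkp3), 9.54 (Perp), 9.64 (Pkp2) and 14.8 (Jup). The wider Dsp peak, which covers the start site, had 9.68, so the place of Dsp as the lowest rests on distance by centre. Without an error between libraries, no order among neighboring values can be given beyond the values themselves. The 13186 control peaks within 1 kb of any start site had a median of 9.22 with quartiles of 6.82 and 11.2. Of the 9 member peaks nearest by centre, 3 were above that median, and the wider Dsp peak was above it too. Over the genome, 132 start site peaks (1%) overlapped an AP-2-dependent region, and of the members only the Pkp3 peak did.

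**Figure D3:**
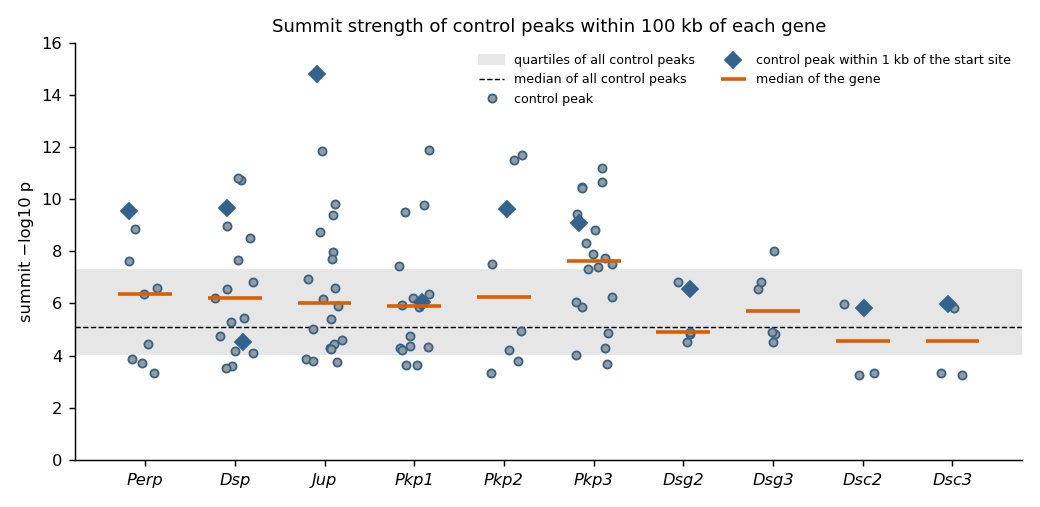
Summit −log10 p (vertical axis) of the control peaks within 100 kb of each gene (points), with the peaks within 1 kb of the start site as diamonds, the median of each gene as an orange line, and the median and quartiles of all control peaks as a dashed line and a gray band. The Jup start site peak, at 14.8, is the highest value, and gene medians run from 4.58 at Dsc2 and Dsc3 to 7.62 at Pkp3.

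The 100 peaks of the set reached a median of 6.18 in summit −log10 p (95% interval of the median over peaks, 5.42 to 6.84, counting error only) with quartiles of 4.36 and 8.36, beside a median of 5.10 with quartiles of 4.07 and 7.29 over all 65298 control peaks on the 21 chromosomes. Of the 100, 62 were above the median of all peaks and 11 were in the top 10%. The peaks of the set lay closer to start sites than control peaks in general, with 56% of them more than 5 kb from every start site against 69.9%, and those 56 had a median of 5.43. No median of all control peaks at that distance is given beside it, and the 5.10 includes peaks at start sites. Their median width was 653 bp against 560 bp, and their median GC content within 100 bp of the summit 55.2% against 53.2%. The 10 peaks on chromosome 18 had a median of 5.36, and the 90 peaks at the other 6 genes one of 6.22.

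Overlap with an AP-2-dependent region was found for 3 of the 100 control peaks, or 3% (95% Wilson interval, 1.03 to 8.45%), beside 4.47% (4.32 to 4.63%) of all control peaks. The interval spans the genome-wide value, so no difference was detectable with 100 peaks. The side of the background depended on how peaks were assigned: the share was 6.12% (3 of 49) among peaks whose nearest start site was a member, and 5.53% (12 of 217) with a limit of 250 kb. Intervals of shares cover counting error only, and peaks are not replicates. The number of regions at the members is therefore not a result that sets these genes apart.

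Lists of other junction genes gave shares on both sides of this background. Peaks were not kept apart between lists, so those in introns of Dsg4 counted both for Dsg4 and in the set. For the 9 further desmosome genes Dsg1a, Dsg1b, Dsg1c, Dsg4, Dsc1, Pkp4, Ppl, Evpl and Cdsn, 2 of 65 peaks (3.08%, 0.848 to 10.5%) overlapped a region, and these were the 2 peaks upstream of Dsg1c. Of these 9 genes 3 had a start site peak, Pkp4 and the plakin genes Ppl and Evpl, whereas Dsg1a, Dsg1b, Dsg1c, Dsg4, Dsc1 and Cdsn, genes of differentiated epidermis and hair, had none. Adherens and epithelial genes such as Cdh1 (E-cadherin) and Cdh3 (P-cadherin) had 8 of 103 peaks with a region (7.77%, 3.99 to 14.6%). Tight junction genes had 4 of 179 (2.23%, 0.872 to 5.6%), and hemidesmosome and laminin-332 genes had 5 of 128 (3.91%, 1.68 to 8.82%). The intervals of all of these lists include the 4.47% of all control peaks.

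**Figure D4:**
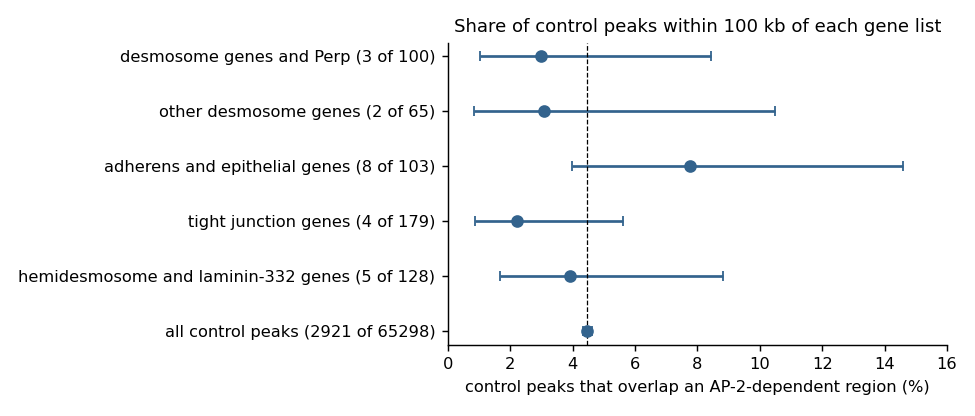
Share of control peaks within 100 kb of each gene list that overlap an AP-2-dependent region, in percent, with 95% Wilson intervals and the numbers of peaks in brackets. The dashed line is the 4.47% of all control peaks, which falls within the interval of every list, including the 3 of 100 of the desmosome genes and Perp.

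The strict AP-2 string GCCNNNGGC, searched on both strands, lay within 100 bp of the summit in 13 of the 100 peaks (13%, 7.76 to 21%), beside 14.4% of all control peaks, and in 5% of windows of the same size 1 kb away (4.82% for all peaks). These 13 peaks were spread over Perp (2), Dsp (3), Jup (3), Pkp1 (1), Pkp2 (1), Pkp3 (2) and Dsg2 (1), and 5 of the genes had the string at a peak of their own: Perp, Dsp, Jup, Pkp2 and Dsg2. None of the 13 overlapped an AP-2-dependent region. Over all control peaks, 7.03% of those with the string and 4.04% of those without it overlapped one. The degenerate AP-2 string was found at 21 of the 100 summits (14.2 to 30%) and at 20.3% of all summits. Of the GCCNNNGGC matches here, many are also matches to the degenerate string, so the 2 counts are not separate.

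Strings of other factors were counted in the same windows on both strands. The p53 family string was at 15 of the 100 summits (9.31 to 23.3%) against 8.68% of all control peaks, and in the windows 1 kb away at 9% against 5.79%. Its matches were at Jup, Pkp1 and Pkp3 (3 peaks each), Perp and Dsp (2 each) and in 2 peaks shared by Dsg3 and Dsg2, and at none of the peaks of Pkp2, Dsc2 and Dsc3. The CTCF string was at 10 summits (5.52 to 17.4%) against 6.21%. The TEAD string GGAATG was at 19 against 17.9%, the grainyhead-like string AACCNGTT at 4 against 3.09%, and the PBX string (TGA, G or T, then TGACA) at 3 against 1.76%. The interval of the p53 family share lay above the genome-wide value, and those of the other strings included it. This comparison was 1 of 7 strings, without adjustment, and was made on peaks that share loci.

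**Figure D5:**
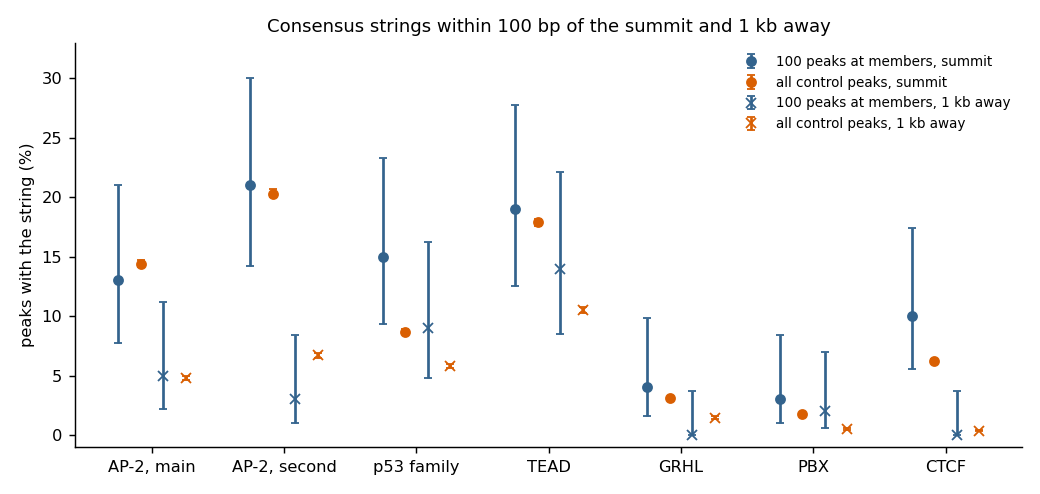
Percent of peaks with each of 7 consensus strings within 100 bp of the summit (circles) and in windows 1 kb away (crosses), for the 100 peaks at desmosome genes and Perp (blue) and for all control peaks (orange), with 95% Wilson intervals. The strict AP-2 string was at 13% of the member summits and 14.4% of all summits, and the p53 family string at 15% and 8.68%.

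Beyond 100 kb, regions were found near further members. Within 250 kb there were 12 regions and 7 of the 10 genes had at least 1, beside 41.4% of all protein-coding genes. Jup had 3, at 109, 189 and 221 kb, which lie in the neighboring keratin gene cluster and were nearest to Krt42, Krt14 (at −1.18 kb from its start site) and Krt9. Dsp had 1 at −227 kb, in intron 8 of Rreb1. Pkp3 had a second at 114 kb, in intron 1 of Hras, with a summit −log10 p of 8.89. Dsc2 and Dsc3 had the 2 regions upstream of Dsg1c and another 2 at 113 and 114 kb downstream of Dsc3. All of these except the pair downstream of Dsc3 were nearest to genes other than the members. Perp and Pkp1 had no further region, and Dsg3, Dsg2 and Pkp2 had none within this distance.

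The loxP sites enclose exons 5 and 6 of Tfap2a and exon 6 of Tfap2b. Each gene contained 1 AP-2-dependent region. That of Tfap2a, with a summit −log10 p of 6.88, overlapped exon 6. That of Tfap2b, with 3.54, overlapped exon 7 of the annotation, whose exon numbers were not compared with those of the paper. The regions alone therefore do not show the deletion of Tfap2b. From RNA-seq, the paper reports that EDKO ectoderm lacked reads at the floxed exon of Tfap2b. As a check of the tissue, 9 of 10 epithelial markers had a start site peak in the control list (all but Grhl3), and so did all 6 markers of mesenchyme and neural crest (Prrx1, Twist1, Pdgfra, Sox10, Col1a1 and Alx4), whereas none of 3 endothelial and none of 3 blood markers did. Over all protein-coding genes, 63.2% had such a peak. Summit −log10 p values ran from 6.77 (Krt8) to 12.4 (Esrp1) for the epithelial markers. For the markers of mesenchyme and neural crest they ran from 3.52 (Sox10) to 7.96 (Col1a1). Start site peaks do not measure expression, and the part of mesenchymal cells in the values at the members was not tested. In bulk samples, fewer ectoderm cells and less open chromatin per cell cannot be told apart.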

How the data were processed

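ATAC-seq libraries of E11.5 facial surface ectoderm (2 control, 2 EDKO) were processed by the authors as follows. Adapters were removed with NGmerge, reads were aligned to mm10 with Bowtie2 (up to 10 positions kept per read pair), and peaks were called with Genrich 0.5 in ATAC-seq mode after removal of PCR duplicates and mitochondrial reads. One call took both control libraries, and another set them against both EDKO libraries as background. The authors deposited for each peak a score (1000 times the mean area under the curve per base, with an upper limit of 1000 that 80 of the 100 peaks described reached), the area under that curve (another score), a −log10 p at the summit, and the offset of the summit. The lists hold no read counts, so depth is unknown, and intervals of shares cover counting error only.

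Genes were given the start site of their principal transcript in the GENCODE annotation of GRCm38, which is the mm10 assembly, and 0 peaks lay beyond a chromosome end. Peaks were assigned by their centres, an overlap was counted from 1 bp, and percentiles were taken within each list. Strings were matched on GRCm38 within 100 bp of summits. Shares carry 95% Wilson intervals. The named genes were the members, the genes nearest to or hosting their regions, start site peaks and strongest peaks, and the genes of the lists. Members and lists were chosen with earlier results of these data known. Genes next to Jup, and the individual peaks described, were named after their values were seen. Alternatives changed distance, threshold, overlap, start site, repeats and string. Regions that gained accessibility in EDKO and expression data were not analysed here. Analyses used Python 3.11.15, NumPy 2.4.6, pandas 2.3.3, SciPy 1.17.1 and bedtools 2.31.1, and were tested on simulated data. The sequence of 1 region is not reported here.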

Additional observations from a re-analysis of the deposited data

How the results depend on the processing

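For 6 results, 37 alternative values were computed, of which 29 lay within the 95% interval of the reported value (shares and the median) or within 1.5 times it (counts). With an overlap of at least 50% of both intervals required, the share of control peaks with a region was 0%, since each of the 3 regions filled less than that of its peak. That interval is wide: other settings gave shares from 2.82 to 6.12% against the reported 3%, the highest among the 49 peaks whose nearest start site was a member. A limit of 250 kb gave 12 regions and 7 genes with a region. An area of at least 500 removed the Perp region, and the median summit −log10 p of the control peaks that passed was 7.43. The share of peaks with the AP-2 string was 21% for the degenerate string, 30% over whole peaks, 5% within 50 bp of the summit and 7.14% among peaks lying over 5 kb from all start sites. No paired analysis was possible because each call pooled its libraries, and for the same reason no library could be left out. The number of reads behind a peak is unknown, which limits how firmly any value can be read.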
